A study of Mus musculus with 4 samples.

Results

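The 43 genes described here encode antioxidant enzymes and glutathione transferases: superoxide dismutases, catalase, glutathione peroxidases, peroxiredoxins, the thioredoxin and glutaredoxin systems, heme oxygenases, ferritins and the sensor KEAP1. The rule for choosing them is a list of names and uses no measured value, although the list was drawn up with earlier results of these data known. All 43 matched a symbol among the 21900 protein-coding genes of the RefSeq table (GRCm38.p6, the assembly of mm10). The series, titled as a study of ATF4 in cardiomyocytes, holds 2 ATF4 pull-down samples, in which crosslinked chromatin was captured on streptavidin and sequenced. A further 2 samples are input chromatin, whose values are not analysed here. All came from the ventricles of mice that were 4 weeks old, with no strain or genotype given. For the pull-down samples the label field for the antibody reads AAV, with no promoter or vector design given and no tag spelled out. In both pull-down names ATF4 is followed by bio, which is not explained. It could mean a biological replicate or a biotin tag. The labels therefore do not settle whether the protein captured was endogenous. No label states outright that the samples came from separate animals, so the spread between them may be technical.

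Superoxide, hydrogen peroxide and lipid peroxides arise from mitochondrial respiration, which is intense in heart muscle. Superoxide dismutases convert superoxide to hydrogen peroxide, which catalase, glutathione peroxidases and peroxiredoxins remove. Thioredoxins and glutaredoxins return oxidised cysteines to their reduced form with electrons from NADPH, and glutathione transferases attach glutathione to reactive compounds. ATF4 is a basic leucine zipper factor of the integrated stress response. Many antioxidant genes are known targets of NRF2, another factor of that class, which KEAP1 holds in check.

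Each pull-down sample had a deposited peak list, with 78746 peaks in replicate 1 and 88812 in replicate 2, and a further list of 41639 peaks covered the series. The series-wide list is an IDR set by its name, a label used for peaks that recur between replicates. Fold enrichment is the authors' value in the series-wide list. For the replicates it was read from the deposited −log10 values through peaks shared with that list. It runs over a constant background, so it is not a ratio to input. At antioxidant gene peaks with values in both replicates, the series-wide fold was the higher of the 2. At Cat, for example, it was 17.3, with 14.0 in replicate 1 and 17.3 in replicate 2. Series-wide folds thus stand above the replicate mean where the replicates differ. The fold steps are 0.5 in replicate 1 and 0.443 in replicate 2, and no counting interval was computed. Where replicate folds lie less than a step apart, their SD reflects these steps and does not measure spread. A gene end means either end of the gene model, with 1 kb on each side, and a peak counted when it overlapped that window by at least 1 bp. The labelled tissue was checked against marker genes. All 8 cardiomyocyte markers, among them Myh6 and Tnnt2, had a series-wide gene-end peak. Of 22 markers of endothelial, fibroblast, smooth muscle, immune and neuronal cells 6 did, beside 34.9% of all protein-coding genes. In the replicate lists 12 and 14 of these 22 did, beside 48.2% and 50.2% of all genes, so markers of other cell types were not at 0. None of the 5 endothelial markers had a series-wide gene-end peak, while 2 of the 5, Pecam1 and Kdr, had one in both replicate lists. The series-wide counts were 0 of 4 for neuronal, 1 of 4 for immune and 2 of 5 for fibroblast markers. Smooth muscle and pericyte markers stood higher, at 3 of 4 (Acta2, Myh11 and Rgs5), and at 4 of 4 in each replicate list. In this bulk tissue, fewer cells of a type and less pull-down per cell cannot be told apart.

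Promoter sequences are shown for 8 of the genes, because they carry the peaks described below: the strongest peaks at an outer start, the peaks at starts inside a gene model, and the promoters that hold motif letters. Each is the RefSeq sequence of 250 bases before and 50 bases after a listed start (GRCm38.p6), read 5′ to 3′ on the strand of the gene. In the first 6 the capitals run from the summit of one replicate to the summit of the other, as far as they lie in the window. The capitals in Prdx1 and Srxn1 mark letters matching the motifs given further on. Windows were chr12:105032368-105032667 (plus strand) for Glrx5, chr3:108017924-108018223 (minus) for Gstm1, chr2:103485104-103485403 (minus) for Cat, chr6:138141337-138141636 (plus) for Mgst1, chr10:80053315-80053614 (plus) for Gpx4, chr19:9982396-9982695 (plus) for Fth1, chr4:116685349-116685648 (plus) for Prdx1 and chr2:152105274-152105573 (plus) for Srxn1.
Glrx5: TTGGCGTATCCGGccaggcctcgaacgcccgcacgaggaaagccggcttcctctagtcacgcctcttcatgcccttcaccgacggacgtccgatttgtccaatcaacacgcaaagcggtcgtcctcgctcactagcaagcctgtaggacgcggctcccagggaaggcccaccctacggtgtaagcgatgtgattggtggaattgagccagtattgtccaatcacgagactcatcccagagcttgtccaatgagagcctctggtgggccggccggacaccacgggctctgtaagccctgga
Gstm1: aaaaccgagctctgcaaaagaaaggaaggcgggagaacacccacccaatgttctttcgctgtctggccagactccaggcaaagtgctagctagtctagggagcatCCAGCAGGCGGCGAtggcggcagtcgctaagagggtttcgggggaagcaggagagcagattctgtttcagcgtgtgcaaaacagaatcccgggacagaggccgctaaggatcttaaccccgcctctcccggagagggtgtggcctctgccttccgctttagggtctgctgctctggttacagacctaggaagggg
Cat: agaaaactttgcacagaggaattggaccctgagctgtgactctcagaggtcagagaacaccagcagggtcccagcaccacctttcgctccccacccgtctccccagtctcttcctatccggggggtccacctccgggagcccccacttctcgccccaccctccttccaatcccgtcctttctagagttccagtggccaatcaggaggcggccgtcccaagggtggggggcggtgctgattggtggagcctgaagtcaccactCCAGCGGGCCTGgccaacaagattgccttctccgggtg
Mgst1: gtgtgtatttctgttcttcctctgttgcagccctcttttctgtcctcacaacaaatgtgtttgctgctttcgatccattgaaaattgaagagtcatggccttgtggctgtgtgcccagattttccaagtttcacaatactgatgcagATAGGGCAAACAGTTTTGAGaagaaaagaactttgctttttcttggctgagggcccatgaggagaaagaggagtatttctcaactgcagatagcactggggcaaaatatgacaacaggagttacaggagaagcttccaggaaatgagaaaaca
Gpx4: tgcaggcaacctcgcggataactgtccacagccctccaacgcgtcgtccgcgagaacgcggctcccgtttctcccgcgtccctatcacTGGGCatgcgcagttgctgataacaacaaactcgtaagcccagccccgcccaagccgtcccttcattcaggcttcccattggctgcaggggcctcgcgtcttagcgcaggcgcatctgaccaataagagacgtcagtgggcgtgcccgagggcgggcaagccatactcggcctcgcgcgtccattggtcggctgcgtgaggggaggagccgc
Fth1: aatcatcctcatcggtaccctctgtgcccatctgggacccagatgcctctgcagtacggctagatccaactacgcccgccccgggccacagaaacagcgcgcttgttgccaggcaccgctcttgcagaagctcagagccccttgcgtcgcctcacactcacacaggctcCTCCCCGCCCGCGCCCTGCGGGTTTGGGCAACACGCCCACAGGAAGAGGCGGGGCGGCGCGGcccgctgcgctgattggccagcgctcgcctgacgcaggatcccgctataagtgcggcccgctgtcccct
Prdx1: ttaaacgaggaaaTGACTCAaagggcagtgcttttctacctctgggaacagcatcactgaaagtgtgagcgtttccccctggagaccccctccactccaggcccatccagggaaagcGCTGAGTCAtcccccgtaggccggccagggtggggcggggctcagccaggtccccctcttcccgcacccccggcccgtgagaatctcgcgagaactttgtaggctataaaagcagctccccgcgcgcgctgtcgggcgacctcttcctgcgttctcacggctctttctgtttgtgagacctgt
Srxn1: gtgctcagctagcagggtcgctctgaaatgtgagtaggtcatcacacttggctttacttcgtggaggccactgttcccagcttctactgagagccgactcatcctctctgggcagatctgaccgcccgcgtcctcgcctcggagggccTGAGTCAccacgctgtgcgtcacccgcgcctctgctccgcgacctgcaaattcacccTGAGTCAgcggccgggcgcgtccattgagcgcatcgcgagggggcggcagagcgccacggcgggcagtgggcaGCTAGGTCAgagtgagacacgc

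Peaks at gene ends were frequent among the antioxidant genes, and most were of middling height. In the series-wide list 29 of the 43 genes (67.4%) had a gene-end peak, against 34.9% of all protein-coding genes. The share was 83.7% (36 genes) in replicate 1, against 48.2% of all genes, and 86% (37 genes) in replicate 2, against 50.2% of all genes. Both replicate lists had a gene-end peak at 35 of the 43 genes (81.4%), against 45.2% of all genes. No test of the list was made. With the series-wide peaks limited to the 50% of highest fold, 11 genes (25.6%) had a gene-end peak, against 16.7% of all genes. Limited to the 20% of highest fold (21.5 and above), 3 genes (6.98%) did, against 5.66% of all genes, a share near the background; these were Glrx5, Prdx3 and Prdx6. With 5 kb around the gene ends 36 genes (83.7%) had a series-wide peak, against 47.4% of all genes. By the summit of the peak 28 of the 43 did, against 32.8% of all genes, and at the gene start alone 25 of the 37 genes with a listed start (67.6%), against 34.2%.

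**Figure D1:**
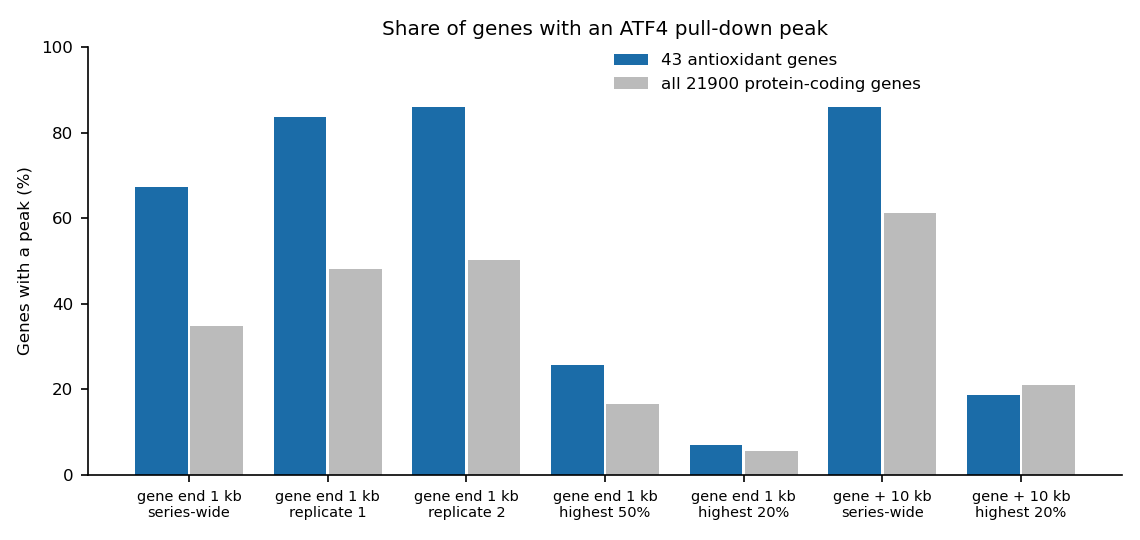
Bars give the percentage of genes with a peak for the 43 antioxidant genes (blue) and for all 21900 protein-coding genes (grey), by window and peak list. The gap seen for all series-wide peaks at gene ends (67.4% and 34.9%) is small when peaks are limited to the highest 20% by fold (6.98% and 5.66%).

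Where a gene had a gene-end peak in all 3 lists, its height was set beside that of all such genes. The mean fold of both replicates had a median of 11.5 over the 28 antioxidant genes (lowest 7.52, highest 30.6), against 12.1 over all 7496 genes with such peaks (quartiles 9.82 and 16.3). Of the 28, 12 lay above the median of all genes and 5 above the upper quartile. The strongest gene-end peaks thus belonged to a few genes: Glrx5, Prdx6, Mgst1, Gstm1 and Hmox1. Agreement between the samples was close at most of the genes. Over the 35 genes with a gene-end peak in both replicates, the higher fold was a median of 1.11 times the lower, against 1.18 times over all 9901 such genes. The ratio passed 1.5 at 3 of them (8.57%), Keap1, Fth1 and Prdx1, against 11.2% of all such genes.

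**Figure D2:**
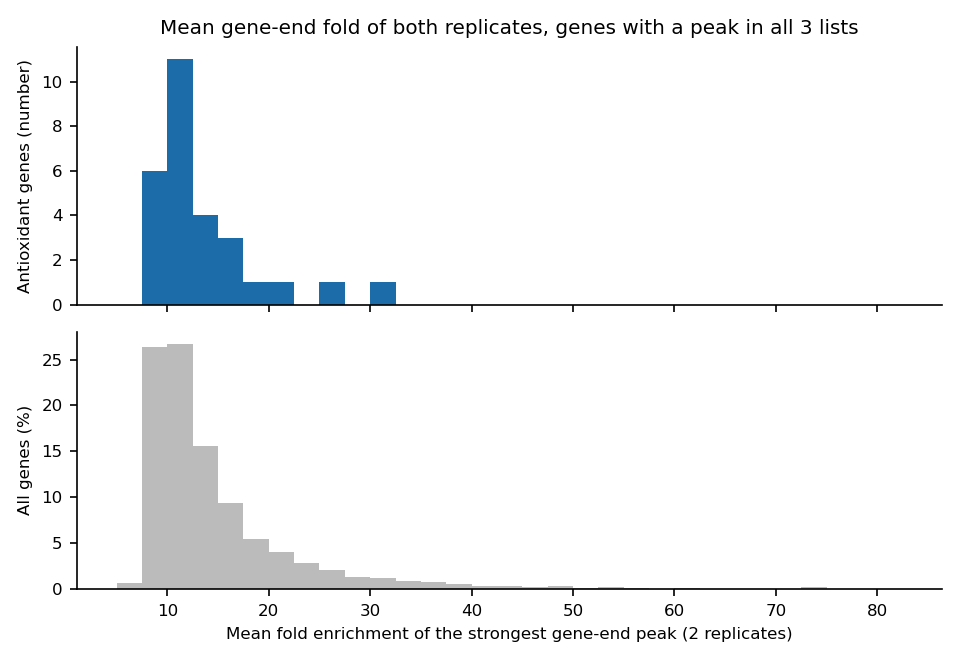
Histograms of the mean gene-end fold of both replicates for the antioxidant genes with a peak in all 3 lists (upper panel, number of genes) and for all genes with such peaks (lower panel, percent of genes). Most antioxidant genes sit in the bulk of the lower distribution, around its median of 12.1, and Glrx5 at 30.6 is the highest.

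All 3 superoxide dismutase genes had a gene-end peak in every list, none of them tall. Sod2, which encodes the manganese enzyme of the mitochondrial matrix, had 11.5 fold in both replicates (mean 11.5 ± 0.0171, SD, n = 2), at a peak on chromosome 17 from 13007541 to 13008445. That SD is far below either fold step and does not measure spread. Sod1, of the cytosolic copper and zinc enzyme, had 13.0 fold in replicate 1 and 9.75 in replicate 2. Sod3, of the extracellular enzyme, had 7.5 and 7.54 fold, the lowest mean of any of the 28 genes found in all lists. Sod1 and Sod2 peaks had their summits at -75 bp and 15 bp from the start of the gene, where minus means upstream.

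Among catalase and the glutathione peroxidases, 3 of 6 genes had a series-wide gene-end peak: Cat, Gpx1 and Gpx8. Cat, which encodes the peroxisomal enzyme that splits hydrogen peroxide, had 14.0 fold in replicate 1 and 17.3 in replicate 2 (mean 15.6 ± 2.32, SD, n = 2), with the summit 23 bp into the gene. Gpx1, of the main cytosolic peroxidase, had 13.5 and 13.7 fold, and Gpx8, of the endoplasmic reticulum, had 10.5 and 11.1 fold. The replicates differed little at Gpx1 and Gpx8 and more at Cat. Gpx3, of the secreted plasma peroxidase, had a gene-end peak in replicate 2 alone, of 8.87 fold, and series-wide peaks of 8.42 and 10.2 fold further inside the gene. Gpx7, also of the endoplasmic reticulum, had 5.5 fold in replicate 1 and 6.21 in replicate 2, in separate peaks whose summits lay 11 bp and 571 bp outside the gene model, and no series-wide peak in the gene or within 10 kb.

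Gpx4, the peroxidase of lipid hydroperoxides and a guard against ferroptosis, had no gene-end peak in any list. The outermost end of its gene model on the 5′ side is however not its only listed start. A peak from 80053070 to 80054578 on chromosome 10 covered inner starts, with 27.0 fold in replicate 1 and 30.1 in replicate 2 (mean 28.6 ± 2.22, SD, n = 2). Its replicate summits lay at 80053403 and 80053407, within the Gpx4 sequence printed above, and the series-wide summit was at -158 bp from the nearest listed start. A further peak, at -7295 bp, had 34.5 and 33.2 fold, but an end of Polr2e lay within 1 kb of it, so it cannot be assigned to Gpx4.

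The same pattern held at 2 other genes that have no series-wide gene-end peak. Txnrd1, of the cytosolic thioredoxin reductase, had 13.5 fold in replicate 1 and 16.0 in replicate 2 at a peak with its summit at -281 bp from an inner start (mean 14.7 ± 1.74, SD, n = 2). Fth1, of the ferritin heavy chain that oxidises and stores iron, had 15.0 and 14.6 fold at a peak from 9982251 to 9983833 on chromosome 19, with the summit at -20 bp from an inner start (mean 14.8 ± 0.264, SD, n = 2). The gene-end values of Fth1, 6.5 fold in replicate 1 and 10.2 in replicate 2, came from peaks at the other end of the model, where an end of Best1 lies within 1 kb. Counted by 1 kb around any listed start, 28 of the 37 antioxidant genes with a listed start (75.7%) had a series-wide peak, against 35.4% of all genes with one; this window was chosen after the data were seen.

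Peroxiredoxins reduce hydrogen peroxide through a reactive cysteine. Prdx6, of the cytosolic 1-cysteine enzyme that also acts on phospholipids, had the second highest gene-end mean, with 25.5 fold in replicate 1 and 25.3 in replicate 2 (25.4 ± 0.166, SD, n = 2; chromosome 1, 161249905 to 161250722). The Prdx6 peak overlapped the gene-end window, but its summit, at 161250189, lay just over 1 kb inside the nearest end of the model. Replicate peaks with summits closer to that end, at 161251189 and 161251289, had 7.0 fold in replicate 1 and 11.1 in replicate 2. Prdx3, of the mitochondrial enzyme, had a series-wide peak of 27.5 fold with its summit 63 bp into the gene (chromosome 19, 60874089 to 60874719). It has no replicate value and no SD, because the replicate lists end on chromosome 19 at 58533719, before the gene. Prdx5, found in mitochondria, peroxisomes and cytosol, had 10.5 and 11.1 fold, at a peak that also lies within 1 kb of ends of Esrra and Trmt112.

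The other peroxiredoxin genes were lower or gave no series-wide peak. Prdx1, of the abundant cytosolic enzyme, had 8.5 fold in replicate 1 and 8.87 in replicate 2 at its start. Its largest replicate 2 value, 13.3 fold, came from a peak near the opposite end, where replicate 1 had 7.0 fold; the difference between replicates lies at that end and not at the start. Prdx2, of the enzyme abundant in red cells, had 7.5 fold in replicate 1 and 6.21 in replicate 2 at its start, within 1 kb of an end of Rnaseh2a, and up to 9.31 fold at the opposite end in replicate 2, but no series-wide gene-end peak. Prdx4, of the enzyme of the endoplasmic reticulum, had no peak in any list, at the gene or within 10 kb. Srxn1, of the sulfiredoxin that repairs over-oxidised peroxiredoxins, had 8.5 and 8.42 fold at its start. A replicate 2 peak past the opposite end of Srxn1 had 9.31 fold.

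**Figure D3:**
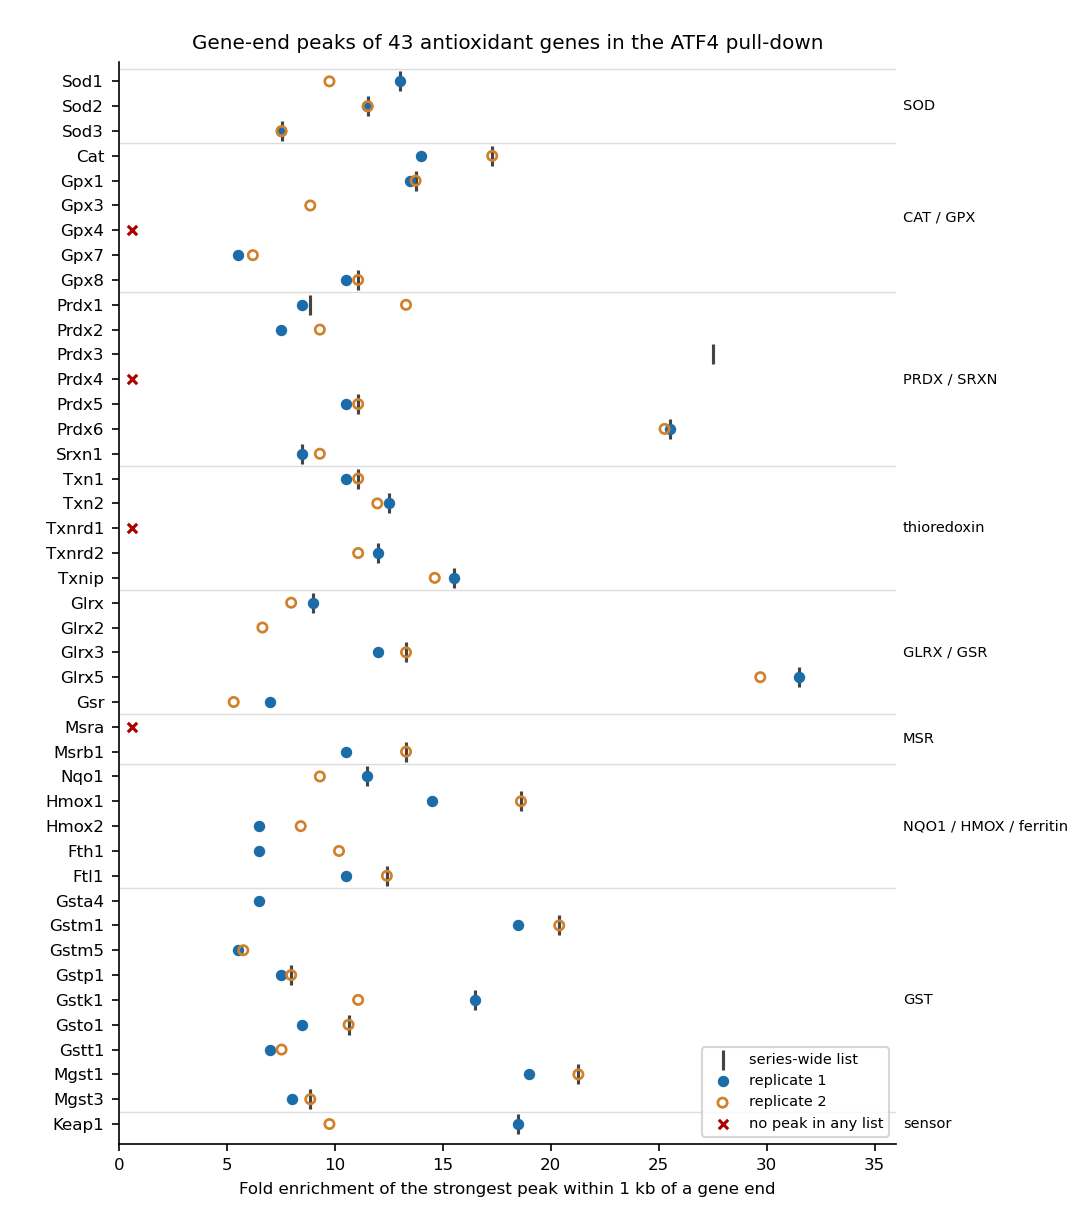
Fold enrichment of the strongest peak within 1 kb of a gene end for each of the 43 genes, in replicate 1 (filled circles), replicate 2 (open circles) and the series-wide list (ticks), grouped by role. Most genes lie between 7.5 and 20 with the replicates close together, while Glrx5, Prdx6 and Prdx3 lie above 25 and Gpx4, Prdx4, Txnrd1 and Msra have no gene-end peak in any list.

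In the thioredoxin system 4 of 5 genes had a series-wide gene-end peak. Txn2, of the mitochondrial thioredoxin, had 12.5 fold in replicate 1 and 12 in replicate 2 (mean 12.2 ± 0.377, SD, n = 2), and Txnrd2, of its reductase, had 12 and 11.1 fold. Txn1, of the cytosolic thioredoxin, had 10.5 and 11.1 fold.

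Txnip encodes an arrestin-like protein that binds and blocks thioredoxin and lowers glucose uptake. Its gene-end peak had 15.5 fold in replicate 1 and 14.6 in replicate 2 (mean 15.1 ± 0.617, SD, n = 2), with the summit 30 bp into the gene (chromosome 3, 96556745 to 96558575). A taller series-wide value, 18.6, stood at -2610 bp (14.0 fold in replicate 1 and 18.6 in replicate 2). Together 7 series-wide peaks lay in this short gene or within 10 kb of it, and the replicate lists had 9 and 12. Of 5047 protein-coding genes under 5 kb, 15 (0.297%) had at least 7 such peaks.

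Glutaredoxins use glutathione to reduce mixed disulfides, and some carry iron-sulfur clusters. Glrx5, of the mitochondrial member needed to build such clusters, had the tallest gene-end peak of the 43 genes, with 31.5 fold in replicate 1 and 29.7 in replicate 2 (mean 30.6 ± 1.27, SD, n = 2; chromosome 12, 105032073 to 105032754). The replicate summits lay at 105032380 and 105032357, the second just before the printed Glrx5 sequence, which therefore opens with the capitals. A further Glrx5 peak, at -7176 bp, had 18.0 and 20.4 fold. Glrx3 had 12 and 13.3 fold, and Glrx, of the cytosolic glutaredoxin, had 9.0 and 7.98 fold. Glrx2 had a gene-end peak in replicate 2 alone, of 6.65 fold. Gsr, of glutathione reductase, which regenerates reduced glutathione, had 7.0 and 5.32 fold and no series-wide peak in either window.

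Methionine sulfoxide reductases repair oxidised methionine. Msrb1, a selenoprotein gene, had 10.5 fold in replicate 1 and 13.3 in replicate 2 at its start; an end of Rpl3l lies within 1 kb of that peak. Msra had no gene-end peak in any list but 13 series-wide peaks inside its 333 kb model, the most of the 43 genes. The tallest, on chromosome 14 from 64349720 to 64350484, had 27.0 fold in replicate 1 and 41.2 in replicate 2 (mean 34.1 ± 10.1, SD, n = 2). The others ranged from 9.31 to 28.8 in series-wide fold. Length bears on such a count. The 557 protein-coding genes of at least 300 kb had a median of 5 peaks, and 20.5% of them had at least 13.

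Nqo1 encodes a quinone reductase that is a classic NRF2 target. At the start of the gene it had 11.5 fold in replicate 1 and 9.31 in replicate 2 (mean 10.4 ± 1.55, SD, n = 2). The tallest series-wide peak in or near any of the 43 genes lay past the other end of Nqo1, 2094 bp outside the model, with 37.5 fold in replicate 1 and 49.6 in replicate 2 (mean 43.6 ± 8.59, SD, n = 2; chromosome 8, 107385784 to 107387064). No other protein-coding gene had an end within 1 kb of it.

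The heme oxygenase genes also had their tallest peaks away from the ends. Hmox1, of the inducible enzyme that breaks down heme, had 14.5 fold in replicate 1 and 18.6 in replicate 2 at the gene end (mean 16.6 ± 2.91, SD, n = 2). A peak 3890 bp outside the model on its low-coordinate side had 33.0 and 27.0 fold (mean 30.0 ± 4.22, SD, n = 2; chromosome 8, 75089353 to 75089856), and another 9605 bp outside had 12.5 and 16.8 fold. The strand of Hmox1 is not in the tables used. Hmox2, of the constitutive enzyme, had 6.5 and 8.42 fold at a gene end, with no series-wide peak there, and 20.5 and 16.8 fold at a peak inside the gene. Ftl1, of the ferritin light chain, had 10.5 and 12.4 fold at its start.

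**Figure D4:**
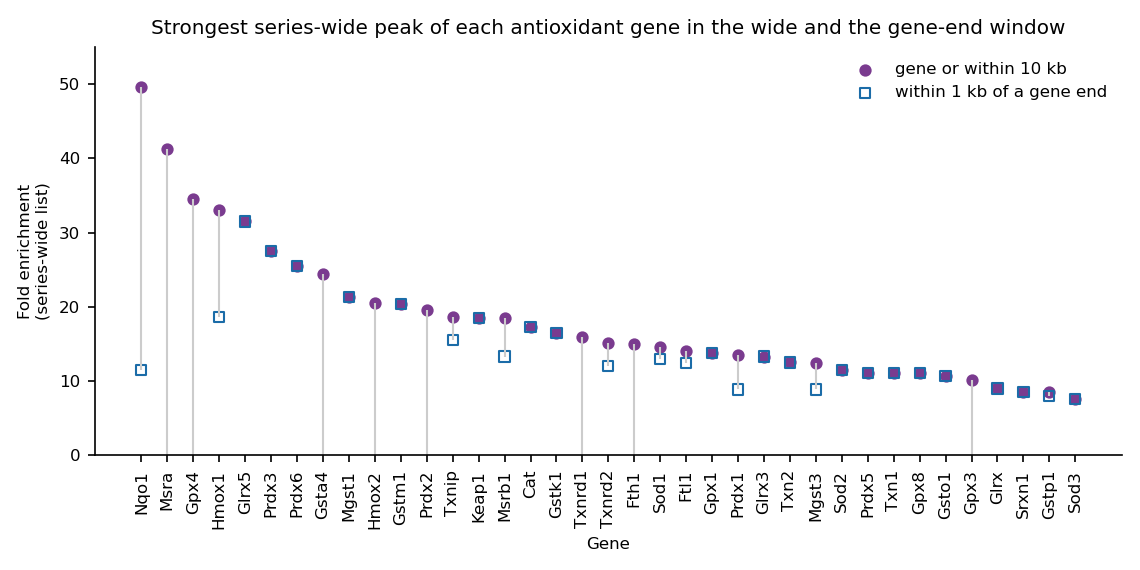
Series-wide fold of the strongest peak inside the gene or within 10 kb (filled circles) and within 1 kb of a gene end (open squares) for the 37 antioxidant genes with a series-wide peak in the wide window; a line without a square marks a gene with no series-wide gene-end peak. At 18 of the 37 genes the tallest peak was not at a gene end, among them Nqo1, Msra, Gpx4, Hmox1 and Gsta4. Of these 18, 10 also had a series-wide gene-end peak.

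Of the 9 glutathione transferase genes, 6 had a series-wide gene-end peak. Mgst1, of a microsomal transferase with peroxidase activity, had 19.0 fold in replicate 1 and 21.3 in replicate 2 (mean 20.1 ± 1.61, SD, n = 2). The summit of its peak (chromosome 6, 138141294 to 138141668) was at 976 bp from the outer start and at -84 bp from an inner one. Gstm1, of a cytosolic mu class enzyme, had 18.5 and 20.4 fold (mean 19.4 ± 1.34, SD, n = 2) with the summit at -132 bp. Gstk1, of the mitochondrial and peroxisomal kappa enzyme, had 16.5 and 11.1 fold (mean 13.8 ± 3.83, SD, n = 2). The spread at Gstk1 was wider than at Mgst1 or Gstm1.

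Lower values stood at the remaining transferases. Mgst3 had 8.0 fold in replicate 1 and 8.87 in replicate 2, and Gstp1, of the pi class, had 7.5 and 7.98 fold. Gsto1 had 8.5 and 10.6 fold, at a peak past its far end that lies inside Gsto2. Gstt1 had 7.0 and 7.54 fold and Gstm5 5.5 and 5.76 fold in the replicate lists, and neither had a series-wide peak in either window. Gsta4, of an alpha class enzyme that conjugates lipid aldehydes, had 6.5 fold in replicate 1 alone at a gene end, but 22.0 and 24.4 fold at a peak 7848 bp outside the model (mean 23.2 ± 1.68, SD, n = 2). Gstm and Gstp genes have near-identical neighbours, so values there are uncertain where reads could map to more than one copy.

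Keap1, of the adaptor through which NRF2 is degraded, had 18.5 fold in replicate 1 and 9.75 in replicate 2 by the gene-end window (mean 14.1 ± 6.19, SD, n = 2), the widest spread of the 35 genes with a gene-end value in both replicates. Part of that gap comes from the window. The 18.5-fold peak, 1293 bp into the gene, overlaps a replicate 2 peak of 14.2 fold that falls short of the window. No peak of replicate 1 or the series-wide list had its summit within 250 bp of the Keap1 start, and replicate 2 had one of 5.32 fold there.

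At the genes with a listed start, gene-end summits clustered at the start. For 26 antioxidant genes with a series-wide gene-end peak and a listed start, the summit of the strongest one was within 250 bp of a start at 88.5%, against 59.2% of all 6219 such genes, and within 500 bp at 92.3%, against 71.2%. No test of this difference was made. The 2 genes with summits beyond 500 bp were Keap1 and Gsto1. Relative to the nearest listed start, summits lay upstream at 14 genes and downstream at 12, among them Gsto1, whose summit lies past its far end. In the 28 gene-end peaks with a summit in both replicates, the summits of the replicates were a median of 33.5 bp apart, and at 16 within 50 bp; the largest gap was 426 bp.

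**Figure D5:**
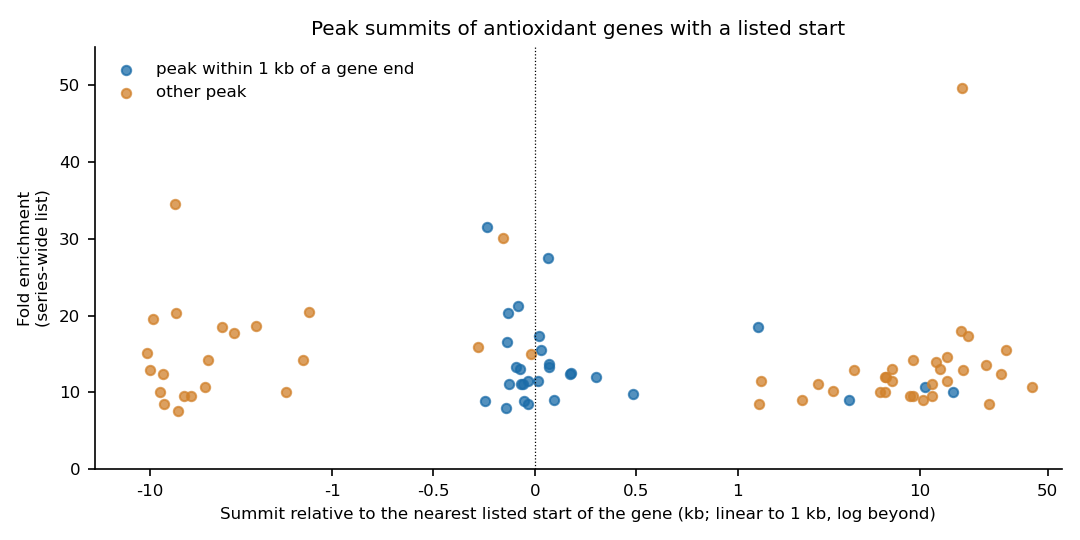
Series-wide fold of each peak against the distance of its summit from the nearest listed start of the gene, in kb, for antioxidant genes with a listed start; blue points are peaks within 1 kb of a gene end and orange points all others in the gene or within 10 kb. The blue points pile up at 0, and the 3 orange points near 0 are the inner starts of Gpx4, Txnrd1 and Fth1.

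The wider window held 103 series-wide peaks at 37 of the 43 genes (86%), against 61.1% of all protein-coding genes. In the replicate lists 40 genes (93%) had a peak there in replicate 1, against 72.3% of all genes, and 41 (95.3%) in replicate 2, against 74.1%. With 5 kb in place of 10 kb, 37 genes had a series-wide peak, against 55.8% of all genes. The antioxidant genes are shorter, with a median model of 9.82 kb against 17.1 kb for all genes, and had a mean of 2.4 peaks against 1.75. Of the 103 peaks, 32 overlapped a gene-end window, 30 lay further inside a gene and 41 in the flanks, where several overlapped neighbouring genes. Among the 20% of peaks with the highest fold, 13 lay in the wide window of 8 antioxidant genes (18.6%, against 21% of all genes); 5 of the 13 were in Msra and 3 were at gene ends. The 6 genes with no series-wide peak in the wide window were Gpx7, Prdx4, Glrx2, Gsr, Gstm5 and Gstt1.

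Letters of known motifs were looked up in the promoters of the 37 genes for which the RefSeq table has a sequence, which gave 51 windows of 300 bases. Sod3, Prdx6, Gsr, Msra, Hmox1 and Gsta4 have no entry there. The core of the CARE element, which ATF4 binds together with C/EBP factors, was searched as TGATGNAA, and the CRE as TGACGTCA, both on either strand. Neither was present in any of the 51 windows, the share over all 32851 promoter windows being 3.97% for TGATGNAA and 1.79% for TGACGTCA. The ARE core TGACNNNGC, bound by NRF2 with small MAF proteins, was in 6 of the 51 windows (11.8%, against 12.4% of all), at Gstm5, Mgst1, Prdx1, Sod1, Srxn1 and Txnrd1. TGANTCA, the TRE bound by AP-1, was also in 6 windows (11.8%, against 7.81% of all), at Glrx, Gstm5, Gstp1, Prdx1 and Srxn1. The Glrx match is counted in 2 windows, whose starts differ by 1 base.

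In Prdx1 an ARE core and a TRE overlap: both lie in the printed GCTGAGTCA, which starts at -133 bp. A further TRE of Prdx1, TGACTCA, starts at -237 bp. The capitals in Srxn1 are TGAGTCA at -102 bp and at -45 bp and GCTAGGTCA at 28 bp. At both genes the series-wide peak overlapped the printed window, with 8.42 to 8.87 fold at the start, below the median of 11.5 given above. The printed windows of Glrx5, Gstm1, Cat and Gpx4, which overlap tall peaks, held none of the 4 motifs, but most of the 51 windows had none. The peaks of Glrx5, Cat and Gpx4 reach past the windows, and bases outside the windows were not searched. The ARE core windows of Txnrd1 and Sod1 overlapped peaks of 14.7 and 11.4 fold by the mean of both replicates. The TRE windows of Glrx and Gstp1 overlapped peaks of 8.49 and 7.74 fold, and the motif windows of Gstm5 and Mgst1 no series-wide peak. CCAAT, looked up after the sequences were seen, matched 4 times in each of the Glrx5 and Cat windows, and was present in 43.1% of the windows of antioxidant genes, against 37.4% of all. Windows with a series-wide peak were richer in G and C, with a median of 60.7% for the antioxidant genes and 61% for all promoters with a peak, against 50.3% for promoters without one. With or without a peak, the windows of the antioxidant genes had a median of 58.7%, against 52.7% for all promoters. The part of base composition in these shares was not tested.

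Other genes of the same pathways were counted from lists, beside the 34.9% of all protein-coding genes with a series-wide gene-end peak. Of 9 regulators of the NRF2 pathway 8 had one, the exception being Mafg. Bach1, of a repressor that competes with NRF2, had 17.5 fold in replicate 1 and 27.0 in replicate 2 (mean 22.3 ± 6.74, SD, n = 2). Nfe2l2, which encodes NRF2 itself, had 22.0 and 21.3 fold (mean 21.6 ± 0.512, SD, n = 2), and Rbx1, of the ubiquitin ligase that acts with KEAP1, had 12 and 13.3 fold. A series-wide peak of 54.5 fold lay inside Mafk or within 10 kb of it.

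Of 15 further glutathione transferase genes 9 had a series-wide gene-end peak, the tallest by the mean of both replicates at Gstm6 (21.8 ± 3.18 fold), Gsta1 (17.4 ± 0.151) and Gstm7 (14.6 ± 1.91; SD, n = 2 for each). Of 11 further thioredoxin-fold and methionine reductase genes 7 did, led by Txndc12, of an endoplasmic reticulum protein, at 28.2 ± 0.26 fold (SD, n = 2). Of 11 iron handling genes 5 did, among them Pcbp1, of an iron chaperone, at 13.3 ± 4.46 fold and Tfrc, of the transferrin receptor, at 10.9 ± 2.92 (SD, n = 2 for each). Of 10 further superoxide and peroxide genes 3 did: Sesn3, of a sestrin, at 35.4 ± 3.01 fold, Sesn2 at 10.3 ± 0.451 and Park7 at 9.96 ± 2.18 (SD, n = 2 for each).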

How the data were processed

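Per the submitters' processing notes, the tools were deepTools, MACS2 and Bowtie2, without versions or roles, and the build was mm10. One peak list is deposited per pull-down sample, and another covers the series. The deposited replicate lists hold a −log10 p-value or q-value per peak, which of them is not given in the sources used here. Depth per sample is likewise not given. The deposited series-wide list holds a fold per peak, a whole multiple of 1 of 2 steps that match a constant background of 1.0 in replicate 1 and 1.256 in replicate 2. Peaks of identical coordinates and summit (17420 and 21053, of which 0 and 6 lay off the main relation) tied the −log10 values to folds. Values below the matched ones (4 and 5) were continued downwards by steps, and 2 and 9 others were interpolated. Starts were set to count from 1 in all lists; 0 value columns were left unmapped.

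Genes came from a RefSeq table of GRCm38.p6, and strands and starts from its promoter table. The members and lists were chosen with earlier results of these data known. No test was run: the design has 1 group with values, and shares are set beside all protein-coding genes. Values are given for each replicate for the 12 genes with the highest mean, those without a series-wide peak and those where the replicate lists differ; other genes were named after their values were seen. The CCAAT search, the window around any listed start and the count without genes past the end of the replicate lists were added after the data were seen. Overlap and fold steps were tested on simulated data, where 200 of 200 placed gene-end peaks were found. Python 3.11.15, NumPy 2.4.6, pandas 2.3.3 and Matplotlib 3.10.9 were used. Some results on single genes are not reported here.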

Additional observations from a re-analysis of the deposited data

How the results depend on the processing

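The count of 29 antioxidant genes with a gene-end peak, beside 34.9% of all genes, was 36 with a 5 kb window, beside 47.4%. By the summit in the window it was 28, against 32.8%, and with peaks covered to 50% by each replicate 28, against 33.2%. At the gene start alone it was 25 of the 37 genes with a listed start, against 34.2%. In settings chosen after seeing the data, it was 28 of 37 at any listed start, against 35.4%. Without genes past the end of the replicate lists, also chosen then, it was 28 of 42, against 35.1%. It fell to 11 with the 50% of peaks of highest fold and to 3 with the 20% of highest fold, which hold fewer peaks by construction. Leaving out 1 replicate could only be done by reading the other replicate's own list, which is longer and reaches lower folds, so that the list changes too. The count was then 36 to 37, and the share of all genes 48.2% to 50.2%. The count of 37 genes in the wide window was 37 with 5 kb and 8 with the 20% of highest fold, and 40 to 41 in the single replicate lists, where the share of all genes was 72.3% to 74.1%. The median gene-end fold of 11.5 was 11.9 with 5 kb, and 11.3 to 11.8 with the folds of 1 replicate alone. No paired analysis was possible because the input samples have no values used here. Depth is unknown, so no limit on undetected peaks can be given.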
